A study of Mus musculus with 6 samples.

Results

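The circadian clock genes described here are *Arntl*, *Clock*, *Per1*, *Per2*, *Per3*, *Cry1*, *Cry2*, *Nr1d1*, *Nr1d2* and *Dbp*. They were chosen by gene symbol from the list of core clock and output genes. Their counts were not used for this, but earlier results of these data were known. All 10 were found among the 31169 genes of the table, each as 1 row, and all 10 passed the filter on low counts.

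In most cells of the body, a loop of transcription and translation keeps time over the day. The proteins of *Arntl* (also called Bmal1) and *Clock* pair, bind E-box sequences and switch on the *Per* and *Cry* genes, whose proteins return to the nucleus and silence the pair. A second loop runs through the nuclear receptors of *Nr1d1* and *Nr1d2* (REV-ERBα and REV-ERBβ), which repress *Arntl*, while the related ROR receptors activate it. The mammalian retina holds a clock of its own, which is known for daily rhythms in dopamine, photoreceptor sensitivity and outer segment renewal.

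Retinas came from C57BL/6 mice that received an injection into the anterior chamber at 1 month of age, either of saline (3 libraries) or of microbeads 15 μm in diameter (3 libraries), and were 2 months old at collection. Per the labels the injected volume was 1 μl, while the methods give another volume. Elevated intraocular pressure (IOP) lasted 4 weeks in microbead-injected eyes, per the labels. The beads obstruct the outflow of aqueous humor, and the saline group carries the injection itself but no beads. The methods state that the mice were male, kept in a cycle of light and dark and injected in both eyes. For its RNA sequencing the study gives more retinas per group than there are libraries here. The hour of dissection is not given in the sources used here, nor is it stated whether each library came from a different mouse, so the p-values measure the spread between these libraries, which may in part be technical.

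The saline libraries held between 36085737 and 46481382 counts and the microbead libraries between 13574949 and 19834366. Mitochondrial genes took 3.19 to 3.57% of the counts in the saline and 8.90 to 10.7% in the microbead libraries. Both depth and this share went with the injection, and their part in a difference between the groups cannot be told apart from it. Rod markers summed to between 51200 and 77270 CPM (a gene's counts scaled to the same library size in every library, with sizes adjusted by TMM) in the 6 libraries, so the labelled tissue was present in each. A pair of saline libraries stood apart. In saline replicate 1 the 8 ganglion cell markers summed to 329 CPM, against 795 to 1174 CPM in the 5 others. In saline replicate 3 the immediate early genes, a list that includes *Per1*, summed to 3296 CPM, against 194 to 321 CPM in the others. *Fos* was at 1178 CPM there, against 9.72 to 26.2 CPM. That library also held 232 CPM of pigment epithelium markers, against 11.6 to 122 CPM, and 210 CPM of the lens gene *Cryaa*. *Cryaa* was at 15.5 and 0.269 CPM in saline replicates 1 and 2 and at most 0.144 CPM in the microbead libraries. Lens and cornea markers summed to 18.25, 4.54 and 245 CPM in the saline and 0.454 to 0.866 CPM in the microbead libraries. Their level thus went with the injection too. In whole retina, fewer cells of a type and less RNA per cell cannot be told apart.

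The first comparison asked whether clock genes differ between microbead-injected and saline-injected retinas 4 weeks after injection. *Cry2* fell by 34.8% and was the only one of the 10 genes past the threshold (an adjusted p-value under 0.05 over the 17707 genes that entered edgeR's quasi-likelihood test). *Cry1*, its paralog, had a log2 fold change of nearly the same size (-0.65) that did not pass, and *Arntl* (0.55) and *Dbp* (-0.55) did not pass either. The *Per* and *Nr1d* genes lay between -0.08 and 0.53 on the log2 scale, with wide intervals.

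Of all genes tested, 12.8% were past the same threshold, 6.46% higher and 6.31% lower after microbead injection, so that 1 of 10 clock genes is close to the background. Before adjustment, 5 of the 10 were under 0.05, and so were 31.4% of all genes. The CPM of the groups did not overlap for 4 of the 10, *Arntl*, *Cry1*, *Cry2* and *Dbp*, and for 37.8% of all genes (18.8% higher, 18.9% lower), which is again close. The median log2 fold change was 0.01 over the 10 genes and -0.03 over all genes. Log2 fold changes were above 0 for 5 clock genes and below 0 for the other 5, and no clock gene passed when a change over 2-fold was required as well, which 7.05% of all genes did. DESeq2 called 3 of the 10, *Arntl* (higher), *Cry1* and *Cry2* (both lower), and 20.2% of all genes. With the replicate number as a block, edgeR called 0 of the 10 and 5.11% of all genes. With limma-voom the only call was again that of *Cry2* (12.5% of all genes).

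**Figure D1:**
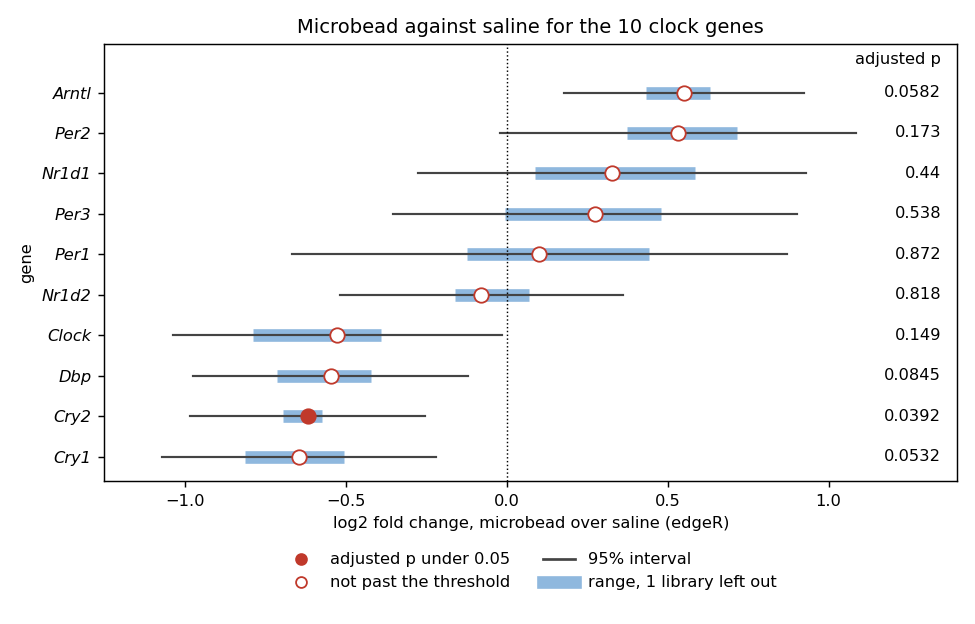
Log2 fold change of each clock gene, microbead over saline, from edgeR (circles, filled where the adjusted p is under 0.05), with its 95% interval (thin line) and the range of the estimate when 1 of the 6 libraries was left out (blue bar). *Cry2* alone is filled, at -0.62, while the intervals of *Per1*, *Per2*, *Per3*, *Nr1d1* and *Nr1d2* include 0.

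Among the activators, *Arntl* and *Clock* lay in opposite directions. *Arntl* encodes the bHLH-PAS protein without which the clock stops, and the gene lies on the forward strand of GRCm38 at chr7:113207465-113314126. It was measured at 102, 93.7 and 92.8 CPM in the saline libraries and at 132, 128 and 162 CPM in the microbead libraries. Each microbead library was above each saline library. On the log2 scale *Arntl* differed by 0.55 (standard error 0.17, 95% interval 0.18 to 0.92), and its adjusted p-value in edgeR was 0.0582, not past the threshold.

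*Clock*, which encodes the partner protein, lies on the reverse strand at chr5:76209868-76304792. Its level was 130, 157 and 123.5 CPM after saline and 75.5, 128 and 80.9 CPM after microbeads. Microbead replicate 2 reached the saline range, and the other microbead libraries were below it. On the log2 scale the difference was -0.53 (standard error 0.23, interval -1.04 to -0.02, adjusted p = 0.149 from edgeR). *Npas2*, which can stand in for *Clock* in the brain, was low, with 4.19 to 4.64 CPM after saline and 4.37 to 7.27 CPM after microbeads, and did not pass (adjusted p = 0.385 from edgeR).

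**Figure D2:**
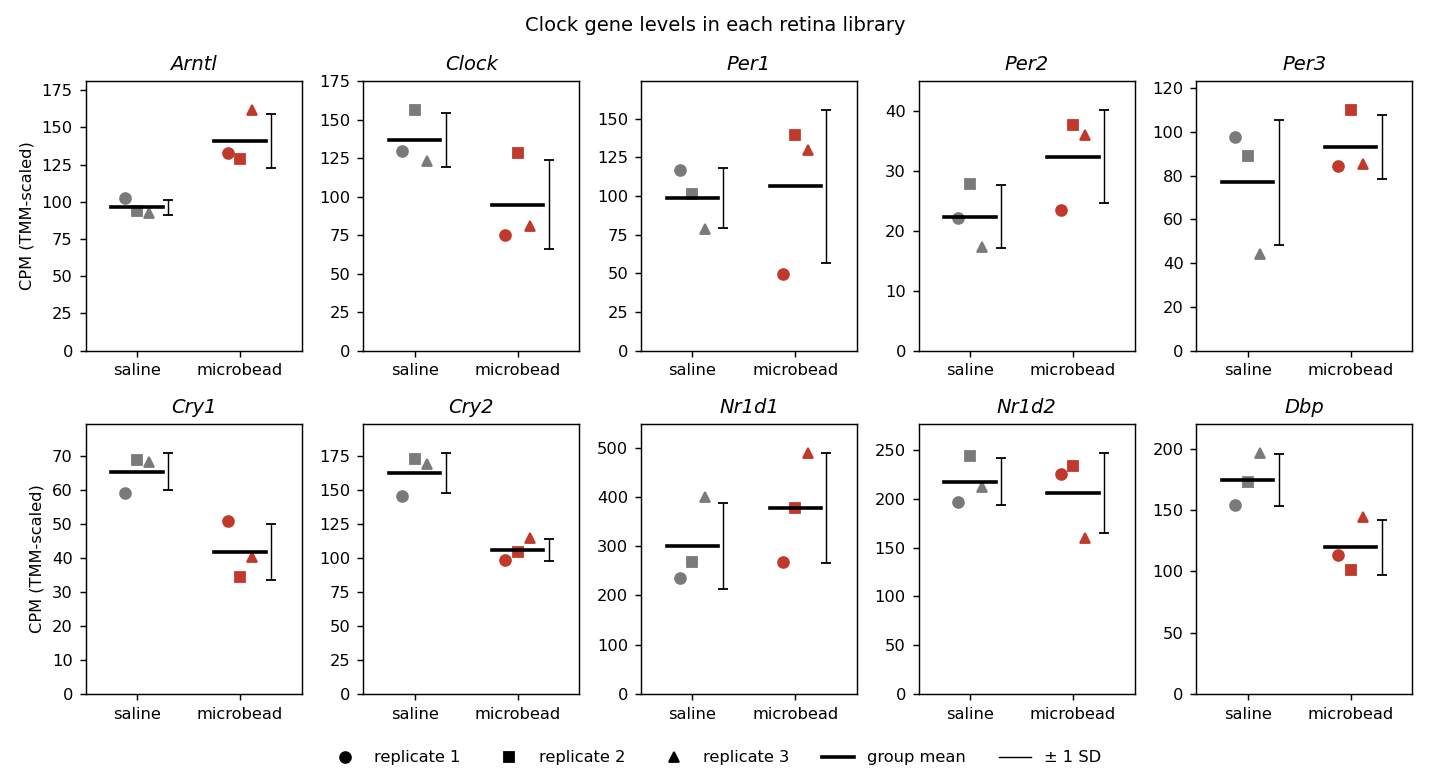
CPM (TMM-scaled, axes from 0) of each clock gene in the 3 saline (grey) and 3 microbead (red) libraries. Symbols mark the replicate, which links no libraries across groups, thick lines the mean and thin bars 1 SD (n = 3). The groups are apart for *Arntl*, *Cry1*, *Cry2* and *Dbp*, and microbead replicate 1 lies far below the other microbead libraries for *Per1*.

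The cryptochromes are the strongest repressors of the loop. Promoter stretches are shown for the clock genes that hold an E-box (letters CACGTG), its variant E′-box (letters CACGTT) or a D-box (letters TTATGTAA or TTACGTAA) before the start site, because these are the letters that the CLOCK-ARNTL pair and the *Dbp* family are known to bind. Both strands were searched from 250 bases before to 50 bases after each RefSeq start site (GRCm38.p6), and an E′-box on the other strand reads AACGTG. Entries were found for 9 of the 10 genes, with 13 start sites. *Per2* had no entry, so its promoter was not searched. Capitals mark the matches.
*Cry1*, chr10:85185094-85185148, reverse strand, E′-box and then E-box: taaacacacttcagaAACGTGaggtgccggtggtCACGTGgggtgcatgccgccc
*Cry2*, chr2:92434215-92434250, reverse strand, E′-box: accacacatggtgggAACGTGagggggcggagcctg
*Per1*, chr11:69098768-69098803, forward strand, E-box: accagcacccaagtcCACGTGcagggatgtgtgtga
*Per3*, chr4:151044801-151044885, reverse strand, a pair of D-boxes: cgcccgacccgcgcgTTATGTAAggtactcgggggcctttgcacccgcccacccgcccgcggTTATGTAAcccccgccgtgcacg
*Nr1d1*, chr11:98775385-98775420, reverse strand, E′-box: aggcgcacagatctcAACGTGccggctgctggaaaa

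These letters occur in many promoters. The E-box was found in 7.15%, the E′-box in 4.68% and the D-box in 1.06% of the 32851 RefSeq promoters of the same length. The core of the ROR and REV-ERB element (AGGTCA) was in 16.3% of all promoters and in those of 4 clock genes, *Arntl*, *Clock*, *Per1* and *Nr1d2*, and overlapped none of the matches above. The cyclic AMP response element (TGACGTCA) was in 1.79% of all promoters and in none of the 13. A match says only that the letters are there. Among the genes searched, which leave out *Per2*, the E′-box letters were shared by *Cry1* (log2 fold change -0.65), *Cry2* (-0.62) and *Nr1d1* (0.33).

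*Cry2* lies on the reverse strand at chr2:92403646-92434043. The saline libraries held 145, 173 and 169 CPM and the microbead libraries 98.5, 104 and 115 CPM. All microbead values were below all saline values, and both groups were tight, with means of 162 ± 14.8 and 106 ± 8.18 CPM (SD, n = 3 each). In edgeR the log2 fold change of *Cry2* was -0.62 (interval -0.98 to -0.25, standard error 0.16), and the adjusted p-value was 0.0392. With 1 library left out, the estimate stayed between -0.69 and -0.57, but the adjusted p-value from edgeR was under 0.05 in only 1 of the 6 fits, that without saline replicate 1, and rose to 0.162 without saline replicate 2. It was 0.0801 without saline replicate 3, and 0.0822, 0.107 and 0.106 without microbead replicates 1, 2 and 3. Over all genes, these 6 fits called 15.1%, 1.68% and 8.42% without saline replicates 1, 2 and 3, and 3.89%, 4.01% and 0.238% without microbead replicates 1, 2 and 3. The noncoding gene *D930015M05Rik* on the other strand shares 295 of the 6320 exonic bases of *Cry2* and had at most 63 counts in any library.

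*Cry1* lies on the reverse strand at chr10:85131700-85185064. It was measured at 59.1, 68.8 and 68.0 CPM after saline and at 50.7, 34.3 and 40.2 CPM after microbeads. The groups did not overlap, though microbead replicate 1 came near the saline range. Its log2 fold change was -0.65 (interval -1.07 to -0.22, adjusted p = 0.0532 from edgeR). It was past the threshold without saline replicate 1 (adjusted p = 0.0492 from edgeR) and without microbead replicate 1 (-0.81, adjusted p = 0.0497 from edgeR). *Cry1* counts per *Cry2* count were 0.406, 0.399 and 0.403 in the saline libraries and 0.515, 0.329 and 0.351 in the microbead libraries, so the ratio was nearly fixed after saline and spread to both sides of that value after microbeads.

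The *Per* genes encode the partners that carry the cryptochromes into the nucleus, and *Per1* and *Per2* are also induced by light through the CREB pathway. None of the 3 passed the threshold, and in each the groups overlapped. *Per1* (chr11:69095217-69109960, forward strand) was at 117, 102 and 78.5 CPM after saline and at 49.5, 140 and 130 CPM after microbeads. Microbead replicate 1 was below the whole saline group and the others above it, so that the coefficient of variation was 46.5% in the microbead group. The log2 fold change was 0.10 with an interval from -0.67 to 0.87 (adjusted p = 0.872 from edgeR), and it was 0.44 without microbead replicate 1. It was below 0 without microbead replicate 2 (-0.12), microbead replicate 3 (-0.07) or saline replicate 3 (-0.04).

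*Per2* (chr1:91415982-91459324, reverse strand) was the least abundant of the 10, with 22.1, 27.8 and 17.3 CPM after saline and 23.5, 37.7 and 36.1 CPM after microbeads. The upper microbead libraries were above all saline libraries, and microbead replicate 1 was within their range. On the log2 scale *Per2* differed by 0.53 (interval -0.02 to 1.08, adjusted p = 0.173 from edgeR).

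*Per3* (chr4:151003652-151044665, reverse strand), a weaker member of the loop, was at 97.7, 88.9 and 44.2 CPM after saline and at 84.3, 110 and 85.1 CPM after microbeads. The low value was that of saline replicate 3, the library with high immediate early genes. With all libraries the log2 fold change was 0.27 (interval -0.35 to 0.90, adjusted p = 0.538 from edgeR), and without saline replicate 3 it was -0.0048. The same library held the lowest saline values of *Per1* and *Per2* and the highest of *Nr1d1* and *Dbp*.

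**Figure D3:**
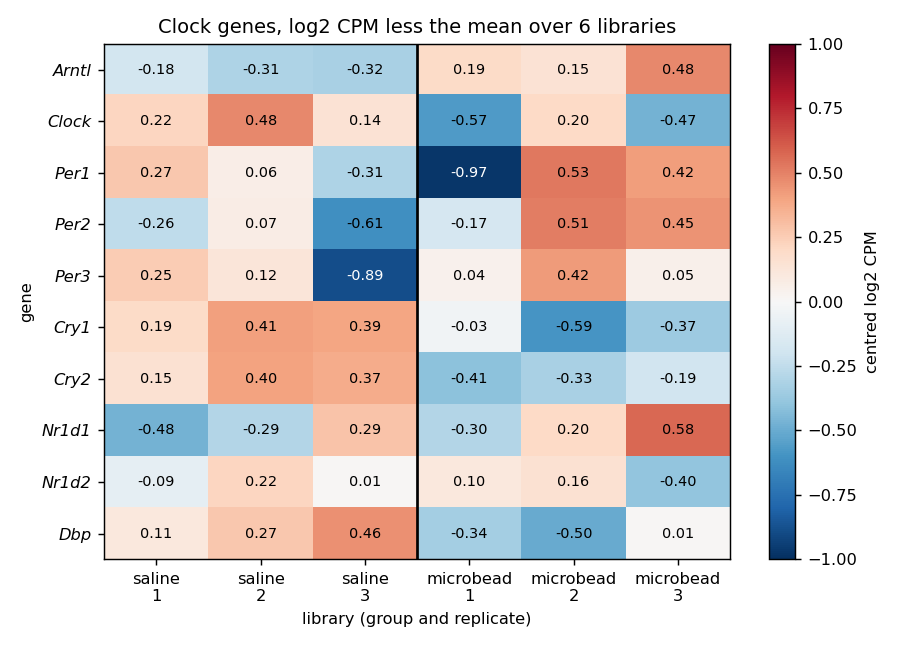
Log2 CPM (prior count 2) of each clock gene in each library, less its mean over the 6 libraries; red is above and blue below that mean. Saline replicate 3 is at -0.89 for *Per3* and -0.61 for *Per2* but at 0.29 for *Nr1d1* and 0.46 for *Dbp*, and microbead replicate 1 is at -0.97 for *Per1*.

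The REV-ERB genes gave no change past the threshold. *Nr1d1* (chr11:98767932-98775333, reverse strand) was the most abundant clock gene, with 236, 268 and 400 CPM after saline and 267, 377 and 489 CPM after microbeads. The groups overlapped over most of their range. Its log2 fold change was 0.33 (interval -0.28 to 0.93, adjusted p = 0.440 from edgeR), 0.58 without saline replicate 3 and 0.09 without microbead replicate 3. Its exons share 263 of 3077 bases with *Thra*, the thyroid hormone receptor gene on the other strand, which was at 244 to 339 CPM after saline and 274 to 345 CPM after microbeads. The kit keeps the strand, but whether the counting used it is not given in the sources used here.

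*Nr1d2* (chr14:18204054-18239127, reverse strand) was at 197, 244 and 212 CPM after saline and at 225, 234 and 159 CPM after microbeads. The microbead libraries reached from below to within the saline range. Its log2 fold change was -0.08, with an interval from -0.52 to 0.36 (adjusted p = 0.818 from edgeR), and without microbead replicate 3 it was 0.07. A change of 2-fold lay outside the interval in either direction, and the same holds for *Per3*, *Nr1d1* and *Per1* but not for *Per2*.

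*Dbp* encodes a PAR bZIP factor that carries the rhythm to output genes through D-boxes, and is a strong target of the CLOCK-ARNTL pair in other tissues. The gene lies on the forward strand at chr7:45705088-45710203. It was at 154, 173 and 196 CPM after saline and at 113, 101 and 144 CPM after microbeads. All microbead values were lower than all saline values, the nearest being microbead replicate 3. *Dbp* had a log2 fold change of -0.55 (interval -0.97 to -0.12), which did not pass (adjusted p = 0.0845 from edgeR). *Sphk2*, on the other strand, shares 539 of the 2993 exonic bases of *Dbp* and was at 13.6 to 22.6 CPM after saline and 19.1 to 26.5 CPM after microbeads.

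Ratios between genes of the same library do not depend on how libraries are scaled. The log2 CPM of *Arntl* less that of *Dbp* was -0.59, -0.88 and -1.08 in the saline libraries and 0.23, 0.35 and 0.16 in the microbead libraries. The groups did not overlap, and the difference between their means was 1.10. Each microbead library was higher in *Arntl* and lower in *Dbp* than each saline library, so this separation follows from the single genes and is no further result. Per kilobase of exons, *Dbp* was above *Arntl* in all 6 libraries. The log2 CPM of *Arntl* less that of *Nr1d1* overlapped between the groups, with -1.20, -1.51 and -2.11 against -1.01, -1.55 and -1.60. *Arntl* counts per *Clock* count, a ratio chosen after the values were seen, were 0.787, 0.598 and 0.751 after saline and 1.75, 1.00 and 2.00 after microbeads, without overlap. The ratios *Cry1* per *Cry2* and *Nr1d1* per *Per3* were not planned beforehand either. These ratios are given as values with no test, since both genes of each were compared one by one above.

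**Figure D4:**
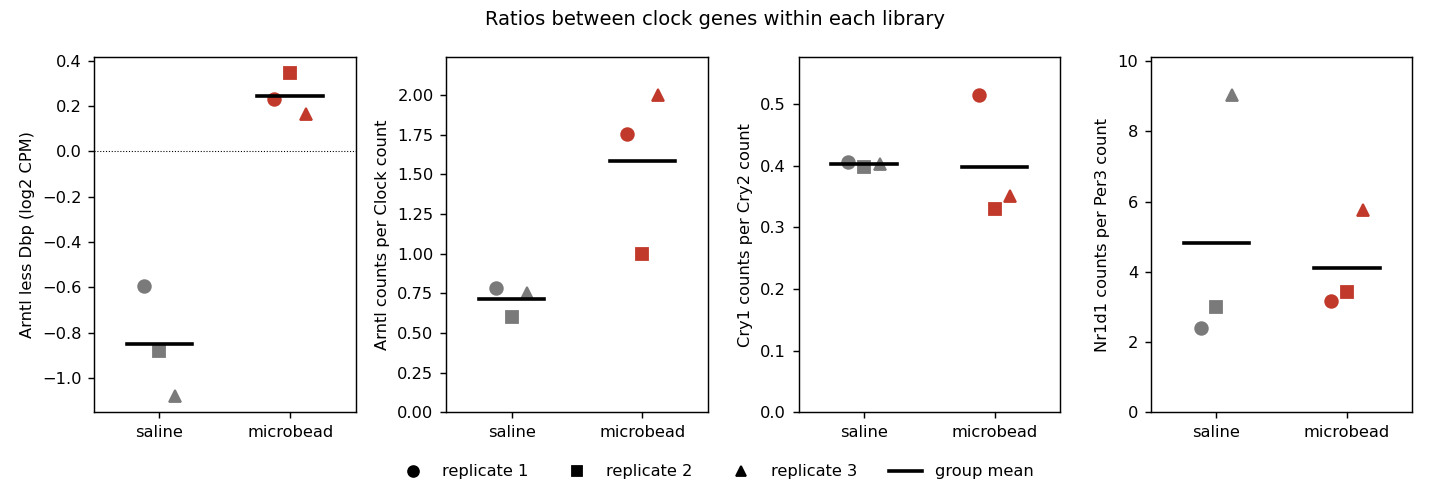
Ratios between clock genes within each library, saline in grey and microbead in red, with the group mean as a line: the difference in log2 CPM between *Arntl* and *Dbp*, and counts of *Arntl* per *Clock*, *Cry1* per *Cry2* and *Nr1d1* per *Per3*. The groups are apart for *Arntl* against *Dbp* and *Arntl* per *Clock* and overlap for the other two ratios, and saline replicate 3 reaches 9.04 *Nr1d1* counts per *Per3* count.

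Averaged by arm of the loop, the clock genes overlapped between the groups. The mean centred log2 CPM of *Arntl*, *Clock*, *Cry1* and *Npas2* was 0.03, 0.10 and -0.01 in the saline and -0.15, -0.01 and 0.04 in the microbead libraries. That of *Per1*, *Per2*, *Per3*, *Nr1d1*, *Nr1d2* and *Dbp* was -0.03, 0.08 and -0.18 after saline and -0.27, 0.22 and 0.19 after microbeads. Within each arm, some genes had log2 fold changes above 0 and others below it.

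The spread between libraries of a group differed widely among the clock genes. In the saline group, the coefficient of variation of CPM ran from 5.47% for *Arntl* to 37.3% for *Per3*, and the median was 13.6% over the 10346 genes whose mean reached 10 CPM. In the microbead group it ran from 7.73% for *Cry2* to 46.5% for *Per1*, with a median of 16.4% over the same genes. The smallest count of a clock gene in any library was 457 (*Per2*), with a counting error of 4.68%, which is below each of these coefficients.

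Levels of different genes were compared per length, as CPM per kilobase of annotated exons. After saline the order was *Nr1d1* (97.8 ± 28.3 CPM per kilobase, SD, n = 3), *Dbp* (58.3 ± 7.03), *Nr1d2* (40.3 ± 4.47), *Cry2* (25.7 ± 2.34), *Cry1* (19.6 ± 1.62), *Per1* (17.6 ± 3.45), *Arntl* (12.8 ± 0.700), *Clock* (9.96 ± 1.27), *Per3* (8.01 ± 2.98) and *Per2* (3.83 ± 0.902). The ranges of neighbours in this order overlapped for *Cry1* and *Per1*, for *Clock* and *Per3* and for *Per3* and *Per2*. After microbeads *Nr1d1* (122.7 ± 36.1) was still highest, *Dbp* (39.9 ± 7.44) and *Nr1d2* (38.1 ± 7.53) overlapped, and *Per1* (18.9 ± 8.78), *Arntl* (18.7 ± 2.41) and *Cry2* (16.7 ± 1.29) did so as well. *Cry1* (12.5 ± 2.48), *Per3* (9.69 ± 1.52), *Clock* (6.92 ± 2.12) and *Per2* (5.54 ± 1.33) followed, each overlapping the next. *Arntl* stood at place 7 after saline and 5 after microbeads, and *Cry2* at place 4 and then 6. The exons of all annotated transcripts were used, which makes the level of *Clock*, with 13727 exonic bases, low.

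Beyond the 10 genes, 77 genes of 6 lists around the clock were tested, with each gene counted once. Several genes belong to more than a single list. The clock gene *Per1* is also in the glucocorticoid-responsive and the immediate early list, and was left out of the 77 only. Of these, 13 were past the threshold, 2 higher and 11 lower after microbead injection (background 12.8% of all genes). Their median log2 fold change was -0.33, and it was -0.15 without saline replicate 3. Leaving out 1 library moved the count of 13. It was 17, 3 and 10 without saline replicates 1, 2 and 3, and 2, 2 and 0 without microbead replicates 1, 2 and 3. Over all genes, the share called moved as well, to 15.1%, 1.68% and 8.42% without saline replicates 1, 2 and 3. Without microbead replicates 1, 2 and 3 that share was 3.89%, 4.01% and 0.238%.

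**Figure D5:**
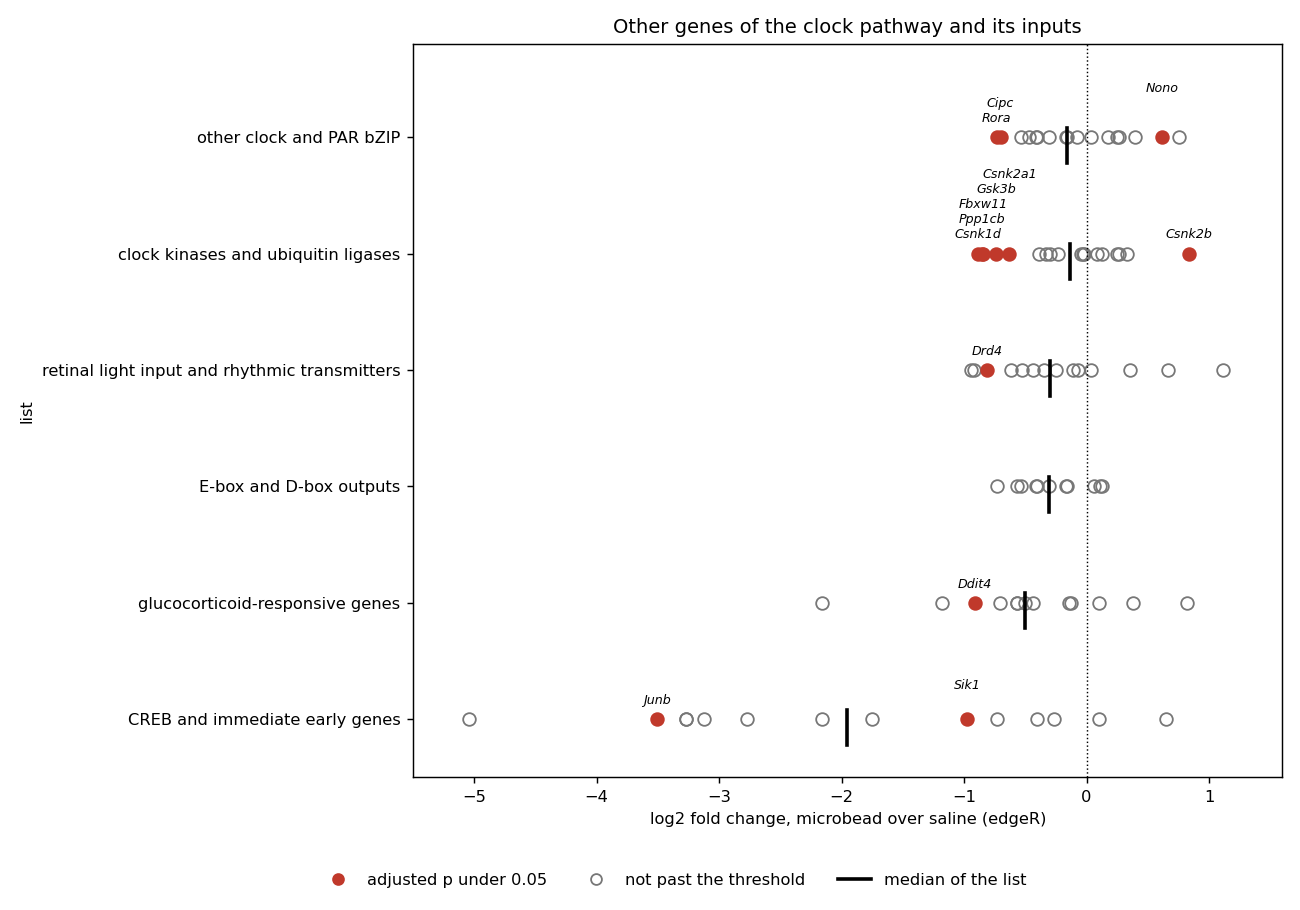
Log2 fold changes (edgeR, microbead over saline) of the genes tested in 6 lists around the clock, filled and named where the adjusted p is under 0.05, with the median of each list as a bar. Calls lie mostly below 0, with *Nono* and *Csnk2b* above it, and the median of the immediate early genes, -1.96, is 0.02 without saline replicate 3.

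Among 17 other clock and PAR bZIP genes, 3 passed. *Rora*, which encodes a ROR receptor that activates *Arntl*, fell from 252, 274 and 277 CPM to 149, 181 and 152 CPM (log2 fold change -0.73, adjusted p = 0.0248 from edgeR). Its relative *Rorb*, abundant in retina, was at 178 to 194 CPM after saline and 201 to 239 CPM after microbeads and did not pass (0.25, adjusted p = 0.322 from edgeR). *Cipc*, a repressor that binds CLOCK, fell from 102, 104 and 106 CPM to 56.1, 70.5 and 65.1 CPM (-0.70, adjusted p = 0.0265 from edgeR). *Nono*, an RNA-binding protein that works with the PER proteins, rose from 190, 184 and 213 CPM to 311, 304 and 286 CPM (0.62, adjusted p = 0.0362 from edgeR), while its partner *Sfpq* had a log2 fold change of -0.17 (adjusted p = 0.591 from edgeR). *Tef*, a PAR bZIP gene like *Dbp*, had -0.53 (adjusted p = 0.0736 from edgeR) and *Hlf* -0.42 (adjusted p = 0.212 from edgeR).

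Of 18 enzymes that set the stability of the clock proteins, 6 passed. That count was 5, 0 and 4 without saline replicates 1, 2 and 3. It was 2, 2 and 0 without microbead replicates 1, 2 and 3, and 2 with the replicate block. The background over all genes was 12.8% with all libraries and 15.1%, 1.68% and 8.42% without saline replicates 1, 2 and 3. It was 3.89%, 4.01% and 0.238% without microbead replicates 1, 2 and 3, and 5.11% with the block. *Csnk1d*, a casein kinase that phosphorylates the PER proteins, fell from 144, 129 and 115 CPM to 60.7, 76.5 and 72.5 CPM (log2 difference -0.89, adjusted p = 0.0179 from edgeR). *Fbxw11*, a ubiquitin ligase subunit that marks phosphorylated PER for breakdown, fell from 109, 97.7 and 115 CPM to 61.4, 58.9 and 59.0 CPM (-0.84, adjusted p = 0.0159 from edgeR). *Gsk3b* (-0.74), the phosphatase subunit *Ppp1cb* (-0.85) and the catalytic casein kinase 2 subunit *Csnk2a1* (-0.63) were lower as well, with adjusted p-values of 0.0280, 0.0337 and 0.0393 from edgeR. *Csnk2b*, the regulatory subunit of casein kinase 2, rose from 67.8, 64.5 and 70.1 CPM to 149, 98.6 and 115 CPM (0.84, adjusted p = 0.0249 from edgeR). The paralogs *Csnk1e* (0.26) and *Csnk1a1* (-0.39) did not pass (adjusted p = 0.273 and 0.166 from edgeR). Of the 18 genes, 12 had log2 fold changes below 0, and the median was -0.14.

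Of 14 tested genes of light input and rhythmic transmitters, 1 passed. *Drd4*, the photoreceptor dopamine receptor whose transcript is known to cycle in retina, fell from 236, 164 and 213 CPM to 107, 115 and 127 CPM (log2 difference -0.81, adjusted p = 0.0264 from edgeR), without overlap between the groups. *Adcy1*, the adenylate cyclase of the same pathway, was at 480, 470 and 369 CPM after saline and 192, 366 and 301 CPM after microbeads (-0.62, adjusted p = 0.1197 from edgeR). The melanopsin gene *Opn4*, a marker of light-sensing ganglion cells, was at 0.769 CPM in saline replicate 1, the library low in ganglion cell markers, and at 3.65 to 7.01 CPM in the others. *Aanat*, the melatonin-synthesis gene, was under 1 CPM in every library.

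A list of 11 genes known as outputs through E-boxes or D-boxes was not chosen by a promoter search. Of the 11 genes, 0 passed in edgeR and in limma-voom and 1 in DESeq2 (20.2% of all genes). In edgeR 3 had an unadjusted p-value under 0.05, close to the 31.4% of all genes. Their median log2 fold change was -0.31. Among 13 glucocorticoid-responsive genes, which follow the daily rhythm of the hormone, 1 passed and the median log2 fold change was -0.50. In edgeR 9 of the 13 had an unadjusted p-value under 0.05 (31.4% of all genes). The CPM of the groups did not overlap for 8 (37.8% of all genes), and DESeq2 called 3 (20.2% of all genes). *Ddit4* fell from 126, 107 and 98.6 CPM to 53.9, 53.5 and 69.2 CPM (-0.91, adjusted p = 0.0186 from edgeR). *Sgk1* (-0.44) and *Mt1* (0.82) did not pass (adjusted p = 0.142 and 0.148 from edgeR). Among 14 CREB-responsive and immediate early genes, *Sik1*, a kinase that limits the response of the clock to light, fell from 19.1, 16.1 and 15.4 CPM to 7.20, 8.58 and 9.99 CPM (-0.97, adjusted p = 0.0260 from edgeR). *Junb* passed as well (-3.51, adjusted p = 0.0498 from edgeR), but without saline replicate 3 its log2 fold change was -0.99 and it did not pass, and the median of the list went from -1.96 to 0.02. *Fos* (-5.04) and *Egr1* (-3.12) did not pass (adjusted p = 0.0536 and 0.134 from edgeR), and without saline replicate 3 their log2 fold changes were -0.65 and 0.99.

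Each of the 13 genes was past the threshold in 1 to 4 of the 6 fits with a library left out. DESeq2 called all 13 (20.2% of all genes) and limma-voom 12, without *Junb* (12.5% of all genes). *Npas2*, *Rorb*, *Csnk1e*, *Opn4* and *Aanat* were named after their values were seen. Endothelial markers moved in the same direction as the genes that fell, with summed CPM of 424 to 617 after saline and 266 to 408 after microbeads. Of these, 2 of 5 were past the threshold, against 12.8% of all genes. The 6 microglia markers had a median log2 fold change of -0.86. In edgeR 0 were past the threshold and 3 were under an unadjusted p-value of 0.05, as were 31.4% of all genes. Microglia markers summed to 125, 40.9 and 61.3 CPM after saline and 61.3, 62.4 and 30.4 CPM after microbeads. The 6 amacrine markers had a median of -0.39, with 0 past the threshold. In edgeR 2 of the 6 were under an unadjusted p-value of 0.05, close to the 31.4% of all genes. Amacrine markers summed to 667 to 1196 CPM after saline and 722 to 778 CPM after microbeads. Bipolar, cone, ganglion cell and pigment epithelium markers had medians of 0.01, -0.20, 0.13 and 0.38, and their sums overlapped between the groups. The summed CPM of rod markers (58360 to 77270 against 51200 to 64590) and of Müller glia markers (4160 to 7312 against 3940 to 4882) overlapped. Whether cell composition had a part in these results was not tested.

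The genes whose log2 CPM followed that of *Cry2* most closely over the 6 libraries, in a search of 10345 others whose mean reached 10 CPM, were *Slc25a44* (Pearson's r = 0.997), *Galnt14* (0.996) and *Acaca* (0.996). All 3 were lower in each microbead library than in each saline library, as were 18.9% of all genes. *Cry2* itself had this order, so it follows from the search and is no further result. Their adjusted p-values from edgeR were 0.181, 0.0580 and 0.0221, so only *Acaca* passed. The 6 points share their libraries and scaling, and the values are a description.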

How the data were processed

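Poly(A) RNA of whole retina, from libraries made with a kit that keeps the strand, was sequenced in read pairs, and 6 libraries (3 saline, 3 microbead) were used. Per the study's methods and the submitters' notes, the authors aligned reads to GRCm38.p5 with STAR 2.5.3a and counted them per gene with featureCounts 1.15.2, and these raw counts were deposited. The treatment of multiply aligned reads and of strand in the counting is not given in the sources used here. The deposited table also carries the authors' DESeq2 comparison (mean signal, log2 fold change, linear fold change as a ratio, p-value, adjusted p-value and a mark for significance), from which no value was taken. All per-sample columns were used.

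Low-count genes were removed by filterByExpr (count 10, total 15), and TMM scaled the library sizes. The groups were then tested in edgeR 4.0.16 under R 4.3.3 (quasi-likelihood, two-sided), the p-values were adjusted by Benjamini-Hochberg across every tested gene, and the threshold was 0.05. Standard errors are the log2 fold change over the square root of F. A count of 3 equals 0.0622 CPM in the deepest and 0.216 CPM in the shallowest library, a limit that covers counting error only. Chi-square per degree of freedom between libraries of 1 group was 22.0 or more, so no library was a duplicate. Gene positions and exons are from GENCODE vM21 (GRCm38). The steps were tested on simulated counts.

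The clock genes, lists and tests were chosen with earlier results of these data known. Named genes are the 10 clock genes, the called genes (up to 6) and the 2 most abundant genes of each list, and the 3 genes most like the clock gene of smallest adjusted p-value. Alternatives comprised other scalings (RLE, upper quartile, sizes without mitochondrial genes), other filters (none, or 10 counts in each library), DESeq2 1.42.0, limma-voom (limma 3.58.1), a replicate block, a 2-fold limit, and omission of each library. Not every gene of the lists is reported here by name.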

Additional observations from a re-analysis of the deposited data

How the results depend on the processing

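Of 140 values of the 10 clock genes under 14 alternatives, 118 kept their direction and their side of the threshold, 6 were weaker, 8 stronger and 8 reversed. The number of clock genes past the threshold was 1 in the report (*Cry2*, with 12.8% of all genes called). It was 2 with upper-quartile scaling (with *Arntl*, 12.5% of all genes) and with no filter (with *Cry1*, 11.9%). It was 3 with at least 10 counts in every library and with DESeq2 (*Arntl*, *Cry1* and *Cry2*). There 15.0% and 20.2% of all genes were called. With the further limit of 2-fold it was 0 (7.05% of all genes). With each library left out it ranged from 0 to 2, and the share of all genes from 0.238% to 15.1%. The estimate of *Cry2* stayed between -0.69 and -0.57 in every fit. The log2 fold change of *Per1* turned to -0.0238 with limma-voom and, with each library left out, ranged from -0.12 to 0.44. That of *Per3* ranged from -0.00478 to 0.48 and that of *Nr1d2* from -0.161 to 0.0685. The 4 scalings kept the direction of all 10 genes.

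The count over all genes, 2261 of 17707 (12.8%), was 3720 of 31169 with no filter (11.9%). It was 3582 with DESeq2 (20.2%) and 1248 with the limit of 2-fold (7.05%). With each library left out it ranged from 46 (0.238%), without microbead replicate 3, to 2621 (15.1%), without saline replicate 1. With no filter, 40.6% of the calls were higher, against 50.6% in the report. The count over the other lists, 13 of 77 genes, was 22 of 81 with no filter and 1 with the limit of 2-fold. With each library left out it ranged from 0 to 17. The shares of all genes in the same settings are those just given.

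The replicate numbers are an order only: deviations of same-numbered libraries correlated by -0.01, 0.14 and -0.01. With a replicate block, 0 clock genes, 905 of all genes (5.11%) and 2 genes of the other lists were past the threshold. The log2 fold changes with the block were -0.62 for *Cry2* (adjusted p = 0.0664 from edgeR) and -1.45e-04 for *Per1*. The cause of these shifts was not tested. Counts of the clock genes were at least 457, while *Aanat* and *Opn4* rest on few counts.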
